A study of Mus musculus with 20 samples.

Results

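H3K27me3, the mark left by Polycomb repressive complex 2, was profiled by Cut&Tag in Nkx2.1 lineage cells of WT and Tcf4 cKO neocortex, and the regions described here are all stretches of the genome with a broad H3K27me3 peak in at least 1 of the 4 libraries. Overlapping or touching peaks of the 4 libraries were merged, with the mitochondrial chromosome left out, into 30048 regions. A region was called gained when both mutant libraries and no WT library had a peak in it, lost in the reverse case, and kept when all 4 libraries had one. By this rule 1610 regions were gained (5.36% of the merged regions), 1217 were lost (4.05%) and 7800 were kept (26.0%), while the other 19421 were held by other combinations of libraries and include 13692 seen in 1 library alone. Because the peaks themselves define the classes, these counts are descriptions and carry no test.

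Tcf4 is a basic helix-loop-helix transcription factor of the E protein family. In the WT group Nkx2.1-Cre alone was present, in the Tcf4 cKO group Nkx2.1-Cre was combined with 2 floxed Tcf4 alleles, and both groups carried the Ai3 reporter, so that cells descended from Nkx2.1-expressing progenitors were GFP-positive. Each H3K27me3 library was made from 50000 sorted GFP-positive cells of dissected neocortices at P7 to P8, with 2 libraries per genotype. Tcf4 binding was read in another line, Tcf4-tag, in which Nkx2.1-Cre switches on a Flag/HA tag at the endogenous Tcf4 gene. The Tcf4 libraries were made from nuclei of sorted Nkx2.1 lineage cells, in a larger number. The Cre acts in Nkx2.1-expressing progenitors of the ventral forebrain, and the sorted cells are a mixture of their progeny, so the share of each cell type in a library is not known. A change in the makeup of the cells and a change in the mark within cells cannot be told apart in these bulk libraries. Whether pups were pooled, and whether the libraries of a genotype came from separate animals, was not given in the sources used here.

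Polycomb repressive complex 2 trimethylates lysine 27 of histone H3, and the mark spreads over promoters and gene bodies that stay silent. In vertebrates its strongest targets are CpG-rich promoters of developmental transcription factors, among them the Hox genes, and the mark is used to keep genes of other lineages off as neural progenitors choose between neuronal and glial fates. Acetylation of the same lysine (H3K27ac) marks active promoters and enhancers, and the lysine cannot carry both at once.

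Stretches of 200 bases of the GRCm38 reference (mm10), read from the RefSeq assembly, are printed to show the kinds of sequence that lie under kept, gained and lost regions. Each is written 5′ to 3′ on the strand given, with every CpG in capitals. Promoter stretches end at the base before an annotated start site, and intron stretches are the exon-free stretch nearest to the centre of the region.
Hoxd13 kept promoter, chr2:74668110-74668309, + strand: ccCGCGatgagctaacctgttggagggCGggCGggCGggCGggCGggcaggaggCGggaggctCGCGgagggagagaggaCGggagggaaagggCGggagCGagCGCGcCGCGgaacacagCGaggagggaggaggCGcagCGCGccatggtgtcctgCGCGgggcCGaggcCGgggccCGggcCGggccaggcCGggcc
Sox9 gained promoter, chr11:112782024-112782223, + strand: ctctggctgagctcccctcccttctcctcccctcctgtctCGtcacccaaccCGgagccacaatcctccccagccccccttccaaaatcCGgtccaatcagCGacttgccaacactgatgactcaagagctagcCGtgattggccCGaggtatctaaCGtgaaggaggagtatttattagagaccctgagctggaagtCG
Hmga2 gained intron, chr10:120399941-120400140, + strand: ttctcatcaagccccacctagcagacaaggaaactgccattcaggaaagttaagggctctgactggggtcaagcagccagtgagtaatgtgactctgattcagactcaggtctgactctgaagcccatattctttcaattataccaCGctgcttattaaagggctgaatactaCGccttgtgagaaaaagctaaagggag
Nfix lost intron, chr8:84798789-84798988, + strand: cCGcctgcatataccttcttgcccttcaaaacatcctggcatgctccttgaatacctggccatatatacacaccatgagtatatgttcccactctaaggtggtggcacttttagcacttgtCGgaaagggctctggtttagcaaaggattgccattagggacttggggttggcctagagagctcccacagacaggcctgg
Nfix kept intron, chr8:84785427-84785626, + strand: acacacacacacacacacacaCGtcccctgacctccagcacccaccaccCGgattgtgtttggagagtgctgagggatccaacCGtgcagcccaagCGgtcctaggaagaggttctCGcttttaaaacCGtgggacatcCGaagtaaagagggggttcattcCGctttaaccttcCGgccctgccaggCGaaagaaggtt
Rps19 lost promoter, chr7:24884171-24884370, + strand: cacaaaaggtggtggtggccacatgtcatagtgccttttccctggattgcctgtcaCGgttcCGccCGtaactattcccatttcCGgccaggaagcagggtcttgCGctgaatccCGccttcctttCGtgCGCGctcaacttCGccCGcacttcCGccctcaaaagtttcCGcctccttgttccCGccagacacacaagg
The Hoxd13 stretch holds 28 CpGs and the Rps19 stretch 14, the Nfix kept intron holds 10, the Sox9 stretch 8, and the gained Hmga2 and lost Nfix introns hold 2 each. The classes differed in the same measure. Kept regions had a median of 19.6 CpGs per kb, against 14.9 in gained and 15.4 in lost regions. At start sites, lost regions had a median of 75.5 CpGs per kb (GC content 64.0%), gained regions 42.3 (57.5%) and kept regions 39.5 (56.0%), whereas away from start sites the 3 classes lay between 12.01 and 13.7 CpGs per kb. The E-box CAGCTG, a palindrome that reads the same on both strands, was found within the central 300 bp of 18.6% of gained, 18.3% of lost and 16.1% of kept regions, against 17.2% of all merged regions. The general E-box CANNTG, which includes CAGCTG, was found in 79.2% of gained, 74.4% of lost and 73.8% of kept regions, against 75.9% of all.

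The lists numbered 15082 and 16788 peaks for the WT replicates and 19179 and 15769 for the Tcf4 cKO replicates. They covered 21.1 and 23.3 Mb in WT and 24.9 and 21.4 Mb in Tcf4 cKO, so the genotypes overlapped (22.2 ± 1.57 Mb against 23.2 ± 2.42 Mb, SD, n = 2 each, two-sided exact permutation p = 0.67, where 0.33 is the smallest p that 2 libraries against 2 can give). Kept regions made up most of the covered length in each library, 15.5 and 16.0 Mb in WT and 15.7 and 15.1 Mb in Tcf4 cKO. Gained regions added 1.66 and 1.52 Mb to the Tcf4 cKO libraries, and lost regions 1.07 and 1.14 Mb to the WT libraries. The number of peaks on the X chromosome varied between 284 and 729 and on the Y chromosome between 0 and 7, with the lowest of both in WT replicate 1 and the highest of both in WT replicate 2. On the X chromosome lay 33 gained (2.05% of the gained), 15 lost (1.23%) and 152 kept regions (1.95%). Of all merged regions 1123 (3.74%) lay there, and 923 of these fell in no class.

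**Figure D1:**
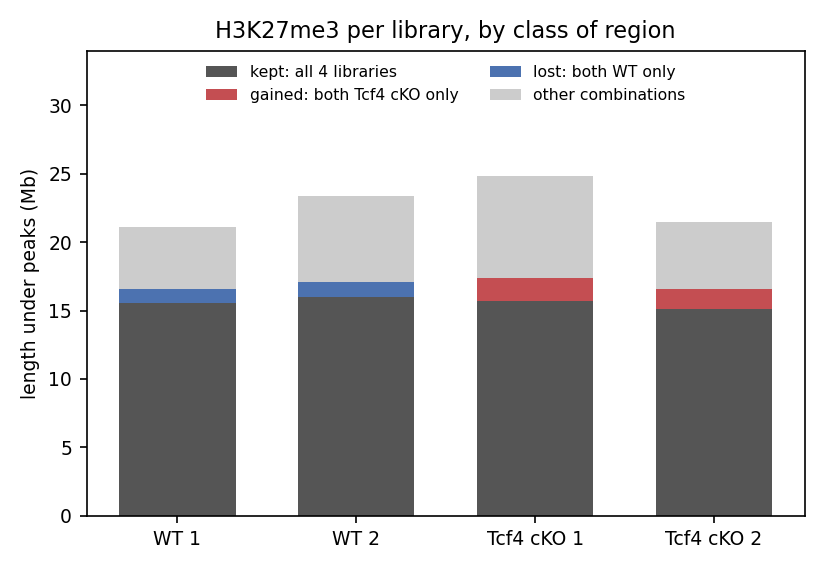
Length under H3K27me3 broad peaks (Mb, y axis) in each of the 4 libraries (x axis), with the bars split into kept, gained and lost regions and those held by other combinations of libraries. Kept regions fill 15.1 to 16.0 Mb of each bar, and gained and lost regions 1.07 to 1.66 Mb.

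Gained and lost regions were weaker and narrower than kept regions. The rule itself favours this, since kept regions join peaks of 4 libraries rather than 2, and weak peaks are more easily missed in a library. The median width was 1183 bp for gained, 998 bp for lost and 2436 bp for kept regions, and 661 bp for regions of no class. Taking the lower -log10 q of the libraries that held a region, the median was 1.51 for gained and 1.55 for lost regions and 2.26 for kept regions, where the peak callers' lists start near 1. Of the gained regions 293 reached 2 or more in both libraries, as did 267 of the lost ones. The balance of the classes turned with the strength required of a peak, since with only peaks of -log10 q of 5 or more there were 133 gained and 353 lost regions. Of the 1610 gained and 1217 lost regions above, however, only 4 and 6 reached 5 in both libraries. Most regions of the stricter count therefore lay in merged regions that also held a peak of the other genotype, and were not free of the mark there. With the same number of peaks in every library, there were 1283 gained and 1309 lost regions. These counts also depend on each library, because without Tcf4 cKO replicate 2 the gained regions numbered 6748 and without WT replicate 1 the lost regions numbered 4852.

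By length under peaks at gene loci, libraries of one genotype were more alike than libraries of different genotypes. When the length under peaks was summed from 10 kb before to 10 kb after each protein-coding gene, and the 2903 loci with a mean of at least 2000 bp were compared across loci on the log2(bp + 1000) scale, Pearson's r was 0.88 between the WT replicates and 0.88 between the Tcf4 cKO replicates, and 0.76 to 0.77 between libraries of different genotypes. These are correlations across loci within the same genome, and loci are not independent replicates. Peak by peak the genotypes were less distinct, though each library overlapped the other library of its genotype most. Of the peaks of WT replicate 2, 63.9% overlapped WT replicate 1, 63.4% Tcf4 cKO replicate 1 and 59.8% Tcf4 cKO replicate 2. Of those of Tcf4 cKO replicate 2, 72.1% overlapped Tcf4 cKO replicate 1, 64.8% WT replicate 2 and 62.0% WT replicate 1. These shares also depend on the length of the other list, which was longest for Tcf4 cKO replicate 1.

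Many developmental regulators lay under kept regions. Of 21637 protein-coding genes, 2806 (13.0%) had a kept region within 1 kb of a start site. Among the Hox cluster genes, which set position along the body axis, 35 of 39 had one, and among other homeobox genes 70 of 77. The same held for 35 of 42 GATA, T-box and forkhead genes and for 23 of 30 proneural bHLH genes, which drive neuronal differentiation. None of the Hox, GATA, T-box, forkhead or proneural promoters was gained or lost, and of the other homeobox genes Irx1 was gained and Nkx2-5 was lost. These lists are too small to set such counts apart from the shares over all protein-coding genes (1.71% gained and 1.88% lost). A kept promoter region was also present at 21 of 26 genes of interneurons and their ventral progenitors, and at 18 of 24 genes of projection neurons and the dorsal cortex, which lie outside the Nkx2.1 lineage. Every interneuron marker checked (Gad1, Gad2, Lhx6, Sst, Dlx1, Dlx2 and Dlx5) had an H3K27me3 peak at a start site in all 4 libraries, and so did Neurod1, Neurod2, Neurod6 and Tbr1 of projection neurons. H3K27me3 peaks of both WT libraries lay at 5 of 6 projection neuron, 2 of 7 oligodendrocyte lineage, 2 of 7 astrocyte and 2 of 4 endothelial markers. For both Tcf4 cKO libraries the counts were 6, 3, 3 and 2. Of the 4 microglial markers none had an H3K27me3 peak at a start site in any library, and of the 3 blood markers Hba-a1 had one in WT replicate 1 alone. ATAC peaks of both WT libraries lay at 6 of 7 oligodendrocyte lineage, 4 of 7 astrocyte, 6 of 7 interneuron, 3 of 6 projection neuron, 2 of 4 microglial, 2 of 4 endothelial and 0 of 3 blood markers.

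The other lists had smaller shares of kept promoters. A kept promoter region was present at 32 of 48 Wnt and BMP pathway genes, 25 of 44 Notch, Hedgehog and FGF pathway genes, 22 of 54 semaphorin, ephrin and guidance genes, 13 of 43 voltage-gated channel genes and 11 of 39 glutamate and GABA-A receptor genes. The glial lists lay lower, with 6 of 25 astrocyte genes and 4 of 24 oligodendrocyte precursor cell (OPC) and oligodendrocyte genes. These glial shares, 24% and 16.7%, were not below the 13.0% of all protein-coding genes. Of 31 Polycomb and H3K27 demethylase genes 5 had a kept promoter region, as did 2 of 7 E protein and Id genes and 7 of 22 microglial, endothelial and blood genes. Ribosomal protein genes had 1 of 53.

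**Figure D2:**
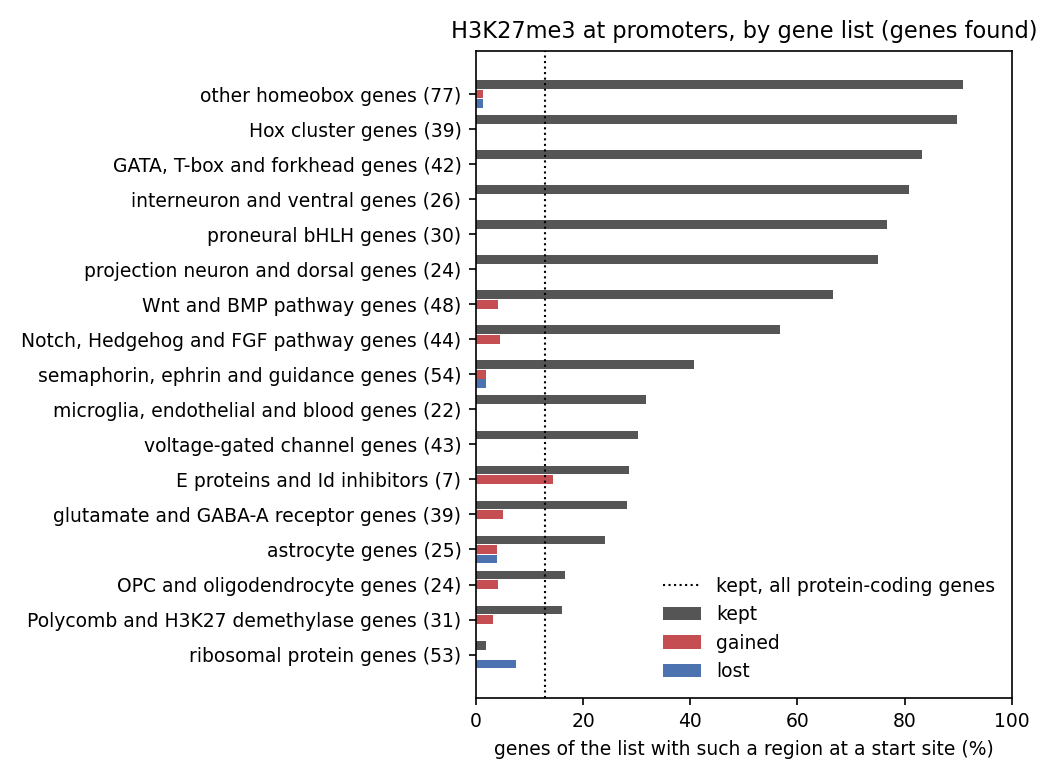
Share of the genes of each list (x axis, %; list and number of genes found on the y axis) with a kept, gained or lost H3K27me3 region within 1 kb of a start site. Homeobox and Hox genes stand highest for kept regions (90.9% and 89.7%) and ribosomal protein genes lowest (1.89%), around the dotted line at 13.0% for all protein-coding genes.

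A gained region lay at a start site of 371 protein-coding genes, which is 4.82% of the 7704 genes with any merged promoter region and 1.71% of all protein-coding genes, and 353 of them had no kept region at another start site. A lost region lay at 407 genes (5.28% and 1.88%), 385 of them without a kept one. A single gene had both. In the gene lists, 12 genes over 9 lists had a gained promoter, and 7 genes over 4 lists had a lost one. By list, the gained share ran from 0% to 14.3% (1 of 7 E protein and Id genes), against 1.71% of all protein-coding genes. The lost share ran from 0% to 7.55% (4 of 53 ribosomal protein genes), against 1.88% of all. These counts per list are small and were given no test.

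The list members with a gained promoter included 1 of 25 astrocyte genes (Sox9), 1 of 7 E protein and Id genes (Id1) and 1 of 24 OPC and oligodendrocyte genes (Zfp488). Over all protein-coding genes the gained share was 1.71%. The astrocyte list also had 1 lost promoter, that of Nfix. Sox9, a transcription factor that specifies glia and stays on in astrocytes, had no peak in either WT library, and a region at chr11:112781067-112785313 over its start site was covered by 4082 and 1725 bp of peaks in the Tcf4 cKO libraries, with -log10 q of 2.07 and 2.005. Id1, which binds E proteins such as Tcf4 and blocks their binding to DNA, had no WT peak and 2255 and 2098 bp in Tcf4 cKO at chr2:152736152-152738406 (-log10 q 3.02 and 3.36). Zfp488, a transcription factor of oligodendrocytes, had 709 and 377 bp in Tcf4 cKO (-log10 q 1.44 and 1.56). Every one of these regions is by definition absent from WT. The Sox9 region also held ATAC peaks in all 4 libraries and Tcf4 peaks in both Tcf4 libraries. H3K27ac peaks lay on it in both WT libraries and in Tcf4 cKO replicate 1. The median -log10 q over all peaks of the Tcf4 cKO lists was 2.06 in both, so the Sox9 region lay near the middle of the lists and the Zfp488 region below it.

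The signalling genes with a gained promoter covered several pathways. Chrd, a secreted BMP antagonist, had 1666 and 2139 bp of peaks in Tcf4 cKO (-log10 q 1.89 and 3.18). Dll3 of the Notch pathway, Wnt7b, a Wnt ligand, and Efnb2, an ephrin ligand, were gained with a lower -log10 q of 1.27, 1.39 and 1.44. Grik3 and Grm7, a kainate and a metabotropic glutamate receptor, and Bmi1, a subunit of Polycomb repressive complex 1, were gained with a lower -log10 q of 1.93, 1.66 and 1.97.

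The 7 list members with a lost promoter region were 4 ribosomal protein genes, Slit1, Nkx2-5 and Nfix. Of the 53 ribosomal protein genes 4 had a lost promoter region: Rps19 (368 and 536 bp of peaks in WT, -log10 q 3.996 and 4.27), Rpl38 (529 and 732 bp, 3.32 and 5.63), Rps20 (498 and 680 bp, 1.27 and 2.21) and Rpl3 (509 and 592 bp, 2.28 and 1.16). This is 7.55% of the list against 1.88% of all protein-coding genes, and the count of 4 was given no test. Slit1, a secreted repellent of growing axons, had 3450 and 2257 bp of WT peaks over its start site (-log10 q 3.56 and 2.75) and none in Tcf4 cKO. Across the whole Slit1 locus the length under peaks was 8403 and 8654 bp in WT and 1656 and 497 bp in Tcf4 cKO.

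The strongest gained promoters by the lower -log10 q of both libraries were those of Cerkl, Anks1b, Efemp1, Rasgrf2, B3gnt7, Tmem26, Atad1, Plac9b, Pik3ap1 and Nr3c2, between 4.35 at Cerkl and 3.04 at Nr3c2. Anks1b encodes a scaffold of the synapse, Rasgrf2 an exchange factor for Ras, and Nr3c2 the mineralocorticoid receptor. Fold enrichment over the local background in the Tcf4 cKO libraries was 4.60 and 4.21 at Anks1b and 4.16 and 3.67 at Rasgrf2. An ATAC peak lay on all 10 of these promoters in all 4 ATAC libraries, and on 6 of them H3K27ac peaks were present in all 4 H3K27ac libraries.

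The strongest lost promoters were those shared by Eno4 and Hspa12a, then Gpsm2, Rab11fip5, Rnf44, Rps19, Nedd9, Idh1, the promoter shared by Paics and Ppat, Camk1g and Fkbp3, from 5.98 down to 3.34. Idh1 encodes a cytosolic isocitrate dehydrogenase, Paics and Ppat enzymes of purine synthesis, and Gpsm2 a regulator of spindle orientation. Fold enrichment in the WT libraries was 4.36 and 5.10 at Idh1 and 4.89 and 5.12 at Gpsm2. ATAC peaks were present in all 4 libraries at 9 of these 10 regions, the exception being Camk1g, and H3K27ac peaks in all 4 libraries at 8.

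Away from start sites the strongest gained region lay 115420 bp from Cd47 at chr16:50030431-50030785, with -log10 q of 16.2 and 28.5 over 335 and 353 bp. It also held H3K27ac, H3K4me1 and Tcf4 peaks in every library of those assays. The next regions lay 5332 and 362 bp beyond Fech, the ferrochelatase gene of haem synthesis, 37258 bp from 1500015O10Rik and 84503 bp from Mtx2. Their lower -log10 q was between 5.32 and 4.73. The strongest lost regions away from start sites lay 28280 bp from Gm11232, within an intron of Ripk2, and 29042, 66598 and 165855 bp from Zfp706, Fndc3b and Dcn. The lower -log10 q of these lost regions was between 5.53 and 4.38.

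Within each library, the H3K27ac and Tcf4 shares at start sites set the 3 classes apart. The ATAC shares of gained and kept regions overlapped. H3K27ac peaks of the WT libraries lay on 87.8% and 85.9% of the 369 lost promoter regions, on 70.8% and 63.3% of the 360 gained ones and on 56.0% and 49.2% of the 2797 kept ones. The Wilson 95% intervals of the first WT library were 84.1% to 90.8% for lost, 65.9% to 75.3% for gained and 54.2% to 57.9% for kept promoters, and they cover counting error over regions only. Tcf4 peaks, from anti-Flag Cut&Tag in the Tcf4-tag line, lay on 89.2% and 81.0% of lost, 62.8% and 36.1% of gained and 54.5% and 28.7% of kept promoters in the 2 Tcf4 libraries. In each of those libraries lost promoters stood highest and kept promoters lowest. ATAC peaks lay on 91.9% to 93.5% of lost, 81.7% to 86.1% of gained and 84.2% to 89.2% of kept promoters. H3K4me1 peaks of the WT libraries lay on 67.2% and 78.2% of kept, 49.2% and 62.5% of gained and 40.9% and 66.1% of lost promoters. For H3K4me1, kept promoters thus stood highest, and the order of gained and lost ones changed between the WT libraries. Lost promoter regions were also the most CpG-dense and narrowest of the 3 (median width 861 bp, against 1330 bp for gained and 2562 bp for kept), and merged promoter regions of no class, which had a mean H3K27ac share of 75.9% in WT and a mean Tcf4 share of 68.0%, were narrow as well (729 bp). The part of width and CpG density in these shares was not tested.

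Away from start sites lost regions were highest for Tcf4 and H3K27ac, and kept regions for ATAC and H3K4me1. Tcf4 peaks lay on 22.1% and 14.6% of the 848 lost regions, 19.1% and 10.1% of the 5003 kept regions and 11.0% and 5.44% of the 1250 gained regions. H3K27ac peaks of WT lay on 17.1% and 14.5% of lost, 14.4% and 11.95% of kept and 11.8% and 9.28% of gained regions. ATAC peaks of WT lay on 27.6% and 31.8% of lost, 32.3% and 38.5% of kept and 21.4% and 25.8% of gained regions, and H3K4me1 peaks of WT on 24.6% and 27.4%, 31.9% and 36.0%, and 22.6% and 25.04%.

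At gained and lost regions the H3K27ac and ATAC shares were compared between genotypes, and none of the 4 differences passed the test. The H3K27ac share at lost regions was 37.3 ± 1.68% in WT (SD, n = 2) and 35.8 ± 1.34% in mutant libraries (SD, n = 2, exact permutation p = 0.67), and at gained regions 23.2 ± 2.55% and 21.1 ± 2.59% (p = 0.67, exact permutation test). At kept regions it was 27.3 ± 2.86% and 22.3 ± 3.63% (exact permutation p = 0.33, the smallest possible). The ATAC share was 48.8 ± 2.38% and 49.0 ± 1.22% at lost regions and 37.1 ± 3.07% and 36.6 ± 1.27% at gained regions (exact permutation p = 1 for both). H3K4me1 shares were higher in Tcf4 cKO at gained (31.0 ± 3.43% to 37.7 ± 0.57%) and at lost regions (34.3 ± 6.74% to 42.4 ± 0.17%), but the same was true of kept regions (47.9 ± 4.66% to 55.2 ± 1.05%) and of all merged regions, each with the exact permutation p of 0.33 that is the smallest possible. A p that misses the threshold with 2 libraries per genotype does not show that the shares are equal.

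**Figure D3:**
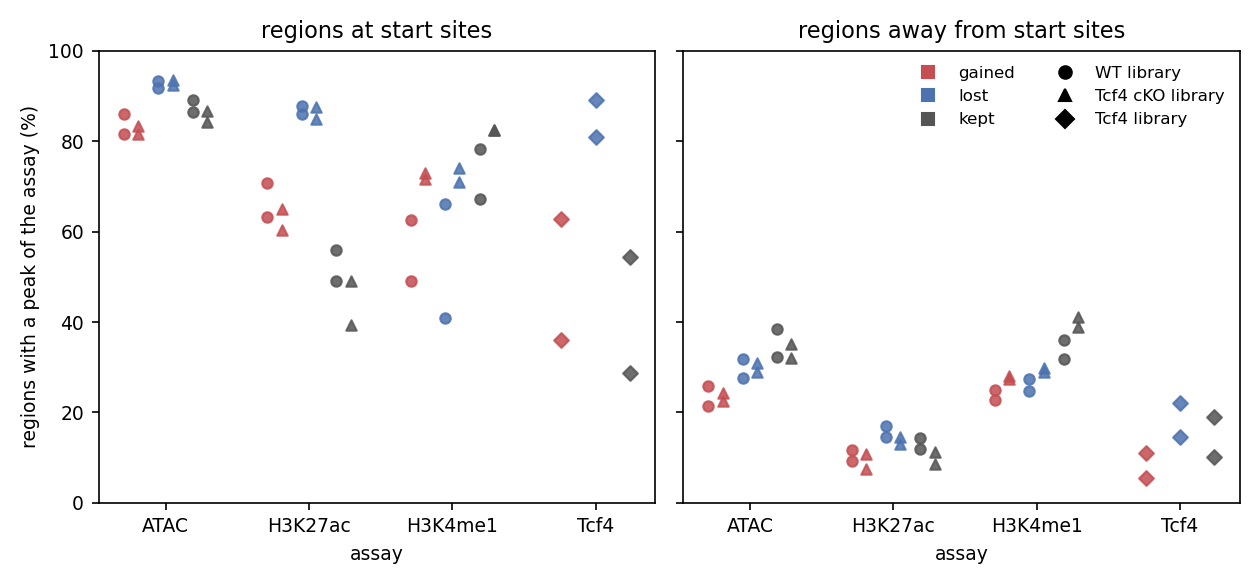
Share of gained, lost and kept H3K27me3 regions (y axis, %) that hold a peak of each of 4 other assays (x axis), at start sites (left) and away from them (right), with 1 point per library. At start sites lost regions lie highest for H3K27ac (84.8% to 87.8%) and for Tcf4 (81.0% and 89.2%) and kept regions lowest.

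Some loci held several gained or several lost regions. Of the 21637 protein-coding genes, 1112 had at least 1 gained region within 10 kb and 1000 had at least 1 lost region. A locus with 3 or more gained regions was found for 35 genes, 26 of them without a lost one, and a locus with 3 or more lost regions for 38 genes, 35 of them without a gained one. Neighbouring genes share regions, so these are not independent loci. Thsd4 had 10 gained and 0 lost regions, Cdh23 and Tenm4 6 and 0, and Adgrl2 and Itga9 5 and 0. Tenm4 also had 35 kept regions, and its length under peaks was 82241 and 85223 bp in WT and 102666 and 89592 bp in Tcf4 cKO (limma, adjusted p = 0.36). Zfhx3 had 8 lost and 0 gained regions and Auts2, Rreb1 and Ston2 5 and 0. A longer gene can hold more regions, and these counts were not adjusted for gene length.

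The length under peaks showed these loci library by library. At Hmga2, which encodes a chromatin protein of fetal progenitors, the length was 9110 and 10788 bp in WT and 26468 and 26236 bp in Tcf4 cKO. At Itga9, an integrin subunit, it was 393 and 0 bp in WT and 13853 and 9407 bp in Tcf4 cKO. At Thsd4 it was 5461 and 10713 bp against 33075 and 26707 bp. At these 3 loci, picked after their values were seen, both Tcf4 cKO libraries lay above both WT libraries, which is no separate evidence. Fech had no WT peak and 7138 and 7264 bp in Tcf4 cKO, Map1b, encoding a microtubule-associated protein of neurons, had none in WT and 9177 and 4585 bp, and the transcription factor gene Zfp618 had none in WT and 6229 and 4585 bp. Ssbp3 went from 2045 and 1120 bp to 12991 and 12754 bp, Slc38a1, a glutamine transporter, from 1566 and 1169 bp to 8763 and 8624 bp, and Ror2, a receptor for Wnt5a, from 1002 and 2079 bp to 7964 and 8387 bp.

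At other loci the length under peaks was shorter in Tcf4 cKO. Tead1, a transcription factor of the Hippo pathway, had 24708 and 20555 bp under peaks in WT and 5620 and 5497 bp in Tcf4 cKO. At Zfhx3, a homeobox transcription factor, the length was 37375 and 44531 bp against 25052 and 21067 bp, and at Mical2 43718 and 48089 bp against 24990 and 26514 bp. Tspan14 went from 13225 and 15375 bp to 4594 and 4710 bp. Pard3, a cell polarity gene, went from 8227 and 8668 bp to 1356 and 1905 bp, and Rnf150 from 11674 and 9713 bp to 1709 and 909 bp. Fam53b had 7382 and 4775 bp in WT and no peak in Tcf4 cKO, and Entpd5 3874 and 5874 bp and none. In all of these loci both WT libraries lay above both Tcf4 cKO libraries. The loci were picked after their values were seen, so this is no separate evidence. At Auts2, which has 27 kept regions, the length was 78816 and 83618 bp against 63245 and 61540 bp.

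**Figure D4:**
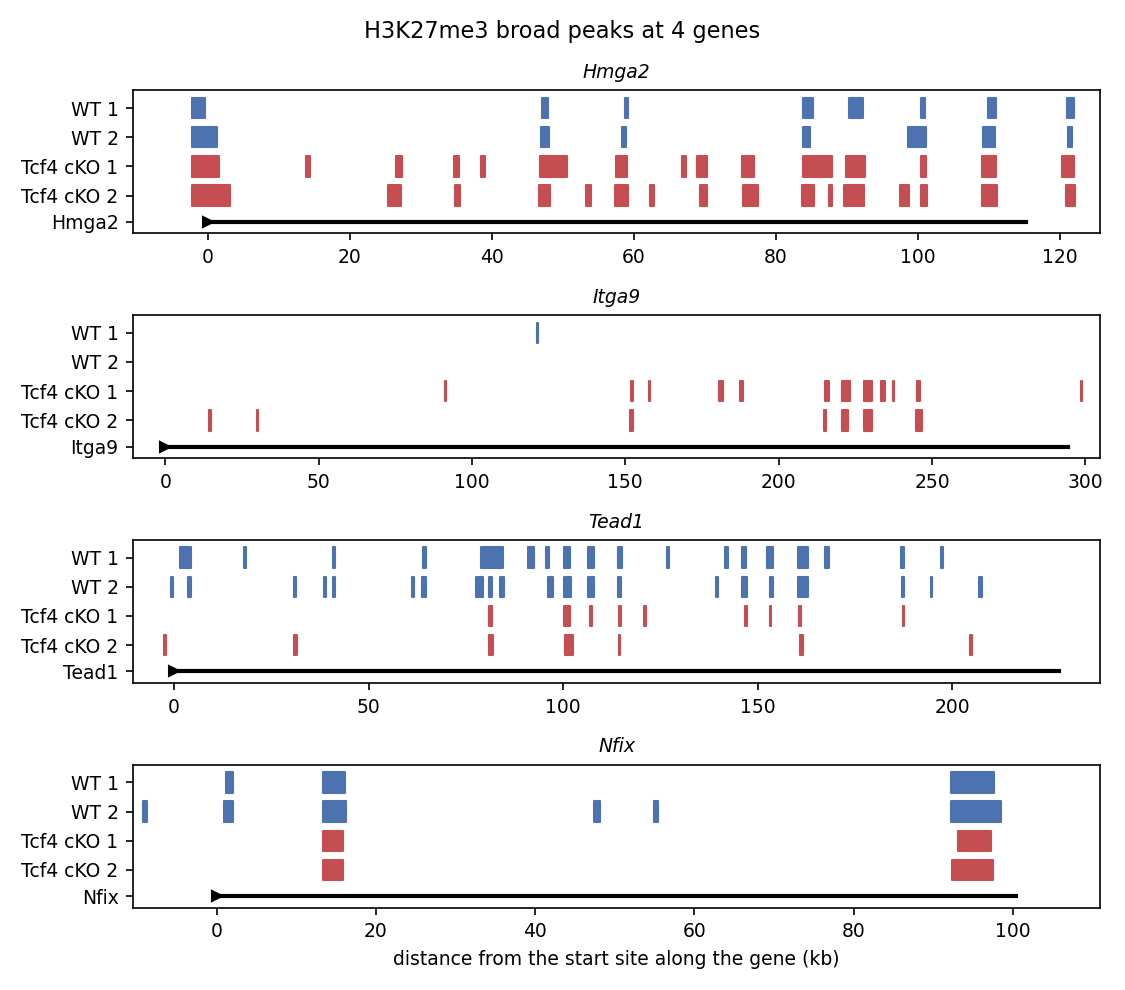
H3K27me3 broad peaks (bars) in each library (rows) at Hmga2, Itga9, Tead1 and Nfix, by distance from the start site along the gene (x axis, kb), with the gene as a black line. Peaks are more and longer in Tcf4 cKO at Hmga2 and Itga9 (9110 and 10788 bp to 26468 and 26236 bp at Hmga2), and fewer and shorter at Tead1 (24708 and 20555 bp to 5620 and 5497 bp).

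Across the 2903 loci, the 2 Tcf4 cKO values lay above both WT values at 751 (25.9%) and below both at 610 (21.0%). In limma with a mean-variance trend, 241 loci (8.30%) had a longer covered length in Tcf4 cKO and 235 (8.10%) a shorter one at an unadjusted p under 0.05. None passed a Benjamini-Hochberg adjusted p of 0.05, the lowest being 0.075, shared by 14 loci including Fech, Itga9, Hmga2, Tead1, Pard3 and Tspan14. Without the trend Fech alone passed (adjusted p = 0.037). When each library was scaled to the same total length, 36 loci were longer and 56 shorter at an adjusted p under 0.05. This comparison of loci and its scaling were chosen after the data had been seen. On the log2(bp + 1000) scale the change was 3.40 ± 0.27 at Itga9 (SE), 1.33 ± 0.11 at Hmga2, -1.84 ± 0.13 at Tead1 and -1.85 ± 0.15 at Pard3.

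The other assays were summed over the same loci. The median log2 change in length under H3K27ac peaks was -0.18 at the 241 longer loci and -0.10 at the 235 shorter ones, against -0.07 at all 2903. For ATAC the values were -0.09, -0.04 and -0.08, and for H3K4me1 0.28, 0.26 and 0.26. The length under H3K27ac peaks was lower in both Tcf4 cKO libraries than in both WT libraries at 72 of the 241 longer loci (29.9%) and at 68 of the 235 shorter loci (28.9%), against 22.0% of all 2903, and it was higher in both at 13 (5.39%) and 19 (8.09%), against 6.30% of all. Among the 14 loci that share the lowest adjusted p, the H3K27ac length was lower without overlap at 4 of the 9 longer ones (Ssbp3, Itga9, Hmga2 and Slc38a1) and at 0 of the 5 shorter ones, and higher without overlap at 0 of the 9 and at Tead1 alone of the 5. It was 3528 and 1778 bp in WT and 786 and 864 bp in Tcf4 cKO at Hmga2, and 1942 and 1552 bp against 2874 and 2080 bp at Tead1. Both genes were picked after their values were seen, and H3K27ac was not tested locus by locus.

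Nfix, an astrocytic NFI transcription factor that the study followed, lost 1 region and kept 2. The lost region (chr8:84798295-84799482), with its centre 1456 bp into the gene, had 900 and 1162 bp of WT peaks (-log10 q 1.72 and 2.67). The kept intron region at chr8:84784119-84786934 was covered by 2711 and 2816 bp in WT and by 2508 and 2507 bp in Tcf4 cKO. Its -log10 q was 16.7 and 20.4 in WT and 3.71 and 3.08 in Tcf4 cKO, a log2 difference of -2.45, while the median over kept regions was -0.12. Of the 7800 kept regions, 0 had a lower difference on this scale, which carries no test. Its fold enrichment, by contrast, was 2.104 and 2.16 in WT and 2.28 and 2.07 in Tcf4 cKO, and did not pass the test (limma, adjusted p = 0.88). The other kept region, at chr8:84701852-84708116, had a higher fold enrichment in Tcf4 cKO (1.60 and 1.61 in WT, 1.94 and 1.898 in Tcf4 cKO, log2 change 0.25 ± 0.05, SE, limma adjusted p = 0.0095), with a shorter covered length (5444 and 6231 bp against 4179 and 5167 bp) and a lower -log10 q (3.43 and 4.09 against 1.997 and 2.35). Over the whole Nfix locus the length was 9055 and 11974 bp in WT and 6687 and 7674 bp in Tcf4 cKO (limma, adjusted p = 0.30). An ATAC peak lay on the kept intron region in all 4 libraries, and neither Tcf4 library had a peak on it. Over the whole Nfix locus, however, Tcf4 peaks covered 4733 and 579 bp in the Tcf4 libraries. The study reported Tcf4 binding signal, and less H3K27me3 after Tcf4 loss, at putative enhancers of Nfix. Which of the regions above these enhancers are was not given in the sources used here.

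The other genes the study named or that bear on it had little. Fgfr3, an FGF receptor of astrocytes, kept a region over its start site and lost one whose centre lay at -7388 bp from it (2217 and 1383 bp in WT). Nfib kept 1 intron region, with 3687 and 3810 bp in WT and 2768 and 2274 bp in Tcf4 cKO. Myrf, Nfia, Olig2, Tcf7l2 and Ezh2 held only regions of no class, and Suz12 and Tcf4 had no H3K27me3 peak within 10 kb in any library. The peak lists therefore give no check of the deletion of Tcf4 itself.

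Within the 7800 kept regions the mean fold enrichment of the peaks was compared with limma with a mean-variance trend, each library centred on its median. At an adjusted p under 0.05, 302 regions (3.87%) were higher in Tcf4 cKO and 99 (1.27%) lower. A higher mean enrichment went with shorter peaks: of the 302 higher regions, 181 (59.9%) were covered by less in both Tcf4 cKO libraries than in both WT libraries and 14 (4.64%) by more, against 21.8% and 20.4% of all kept regions. Of the 99 lower regions, 50 (50.5%) were covered by more and 10 (10.1%) by less. The clearest case was Pxylp1, where fold enrichment was 1.84 and 1.92 in WT and 3.62 and 3.99 in Tcf4 cKO, while the covered length was 2956 and 2874 bp in WT and 531 and 1380 bp in Tcf4 cKO. Across kept regions the changes in log2 fold enrichment and log2 covered length had a Pearson's r of -0.38, and regions are not independent replicates. A higher mean enrichment over a shorter peak does not by itself measure more of the mark.

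Among the regions that passed the test, the next largest increases were at Deaf1, Tspan14, Ranbp10 and Lmnb1, with log2 changes from 0.52 to 0.56. The largest decreases among them lay at Msh3, Shq1 and Adgrl2, 28135 bp from Rgs8, and at Jarid2, from -0.74 to -0.54. Jarid2 encodes a subunit of Polycomb repressive complex 2. At the Jarid2 region fold enrichment was 11.4 and 10.7 in WT and 7.48 and 7.67 in Tcf4 cKO (log2 change -0.54 ± 0.11, SE, limma adjusted p = 0.012), with a covered length of 450 to 464 bp in every library and a -log10 q of 52.7 and 52.3 in WT and 23.1 and 26.7 in Tcf4 cKO. At Adgrl2, by contrast, the covered length was 593 and 795 bp in WT and 1147 and 1659 bp in Tcf4 cKO, where the mean enrichment was lower. Without the mean-variance trend 0 regions passed in either direction, with 726 higher and 544 lower at an unadjusted p under 0.05, and the covered length of kept regions gave 0 calls in limma (359 longer and 506 shorter at an unadjusted p under 0.05).

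**Figure D5:**
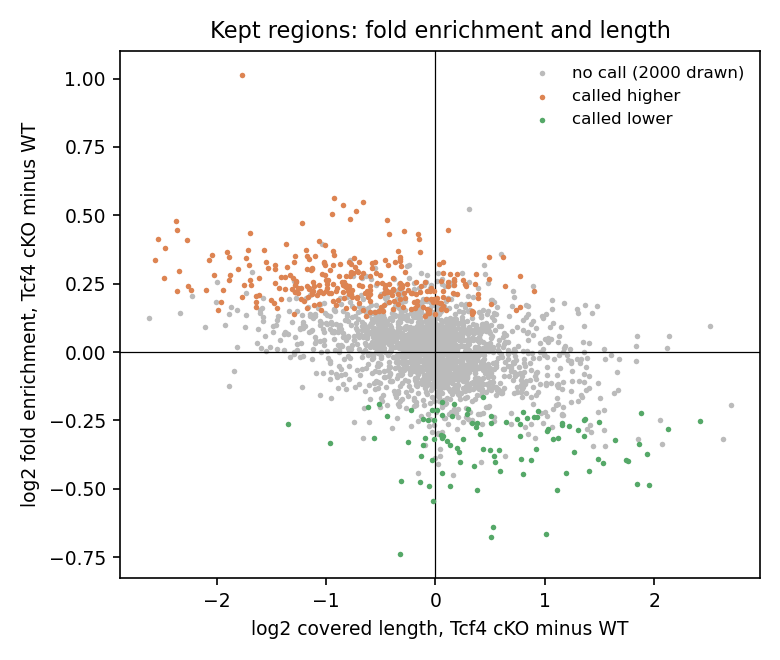
Change in mean log2 fold enrichment (y axis) against change in log2 covered length (x axis), Tcf4 cKO minus WT, for all called kept regions and 2000 others drawn at random. Regions called higher lie mostly to the left, where peaks are shorter in Tcf4 cKO, with a median length change of -0.74, and those called lower mostly to the right, with a median of 0.50.

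The 5 widest kept regions were covered over most of their width in every library. The widest, at chr8:123537585-123624120, was covered by 86172 to 86536 bp in each library. The next 4 lay over a group of predicted genes at the start of chromosome 9, near Apba2, within Ulk4 and over predicted genes on chromosome 13, with widths of 38218, 29671, 19017 and 18003 bp. The region near Apba2 was covered by 27613 and 29613 bp in WT and 25618 and 26391 bp in Tcf4 cKO. The chromosome 9 group was covered by 38051 to 38206 bp, with a -log10 q of 36.5 and 27.1 in WT and 17.2 and 16.7 in Tcf4 cKO. It also held ATAC, H3K27ac, H3K4me1 and Tcf4 peaks in every library of those assays. So did the widest region, except for H3K27ac in Tcf4 cKO replicate 2, so signal at these 2 regions was not particular to H3K27me3. The Ulk4 and chromosome 13 regions held no peak of the other assays.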

How the data were processed

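Peak lists of the 2 WT and 2 Tcf4 cKO H3K27me3 Cut&Tag libraries were used, with those of ATAC-seq, H3K4me1, H3K27ac and Tcf4. The authors trimmed reads with Trim Galore, aligned them to mm10 with Bowtie2, filtered with SAMtools and ran MACS2 separately on every library, with broad peaks for H3K27me3. The deposited columns used were the fold enrichment (a ratio to the local background that MACS2 estimates) and, as strength, the deposited -log10 q-value, while the deposited -log10 p-value was left aside. Read depth is unknown, and no control library was used. Tables of the authors' own comparisons of ATAC-seq regions and footprints were not used.

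All 66818 peaks lay within the GRCm38 chromosomes, and genes were taken from GENCODE M21. A promoter region overlaps 1000 bp on either side of a start site, and overlaps were 1 bp or more. A region's value in a library is the length-weighted mean fold enrichment and the highest -log10 q of its peaks. limma 3.58.1 in R 4.3.3 was used with Benjamini-Hochberg adjustment, and Python 3.11.15 with scipy 1.17.1, pandas 2.3.3 and pysam 0.24.0 for the rest. The scripts were tested on simulated data. Shares carry Wilson 95% intervals. With 2 libraries per genotype, p-values measure the spread between libraries, which may be technical. The regions, the 17 gene lists and the tests were chosen with earlier results of these data known. Of the genes listed, 1 OPC and 1 guidance gene were not matched by symbol. Values of some list members are not reported here.

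Named genes are those the study followed for H3K27me3 (with Polycomb and E protein genes), the 10 promoter and 5 other regions with the highest lower -log10 q in each class, list members gained or lost, the 5 largest changes of fold enrichment each way, and the 5 widest kept regions. The loci compared by covered length were chosen after their values were seen. Replicate numbers were shared between genotypes and what they stand for was not given in the sources used here.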

Additional observations from a re-analysis of the deposited data

How the results depend on the processing

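The counts of regions rest on peak strength and on each library. Gained, lost and kept regions numbered 133, 353 and 1355 with peaks of -log10 q of 5 or more, and 119, 219 and 817 in 5 kb bins; with peaks of -log10 q of 2 or more there were 785 gained and 4542 kept. Leaving out 1 library in turn gave 2379 to 6748 gained, 1871 to 4852 lost, and 590 to 1107 genes with a gained and 638 to 1408 with a lost promoter region, since 1 library fewer has to lack or hold a peak. Genes with a gained or lost promoter region numbered 241 and 239 with peaks of -log10 q of 2 or more, and 725 and 714 with the gene body or 1 kb before it. The difference in covered length turned from 0.922 Mb to -0.274 Mb, Tcf4 cKO minus WT, with the same number of peaks in every library. Kept regions with higher and lower fold enrichment numbered 103 and 38 without centring, 0 and 0 by covered length and 0 and 0 without the mean-variance trend; the higher ones 162 with quantile normalization and 165 without the regions of lowest enrichment. Without 1 library the higher ones ranged from 118 to 453 and the lower ones from 79 to 109. With the replicate number as a block there were 531 higher and 202 lower, and 1 and 0 without the trend; deviations of same-numbered libraries had r = 0.010, so no pairing was visible. The loci with a longer covered length, of which none was called, became 1 without the trend, and longer and shorter ones became 36 and 56 with equal library totals, 7 and 11 with a flank of 50 kb and 7 and 3 with a mean of at least 4000 bp. The cause was not tested. Of 210 values at 30 named loci under other flanks, peak limits and left-out libraries, 209 kept their direction and 1 (Msln with no flank) was 0, which is no sign of stability, since these loci were chosen for values that do not overlap between genotypes.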
